A study of Rattus norvegicus with 14 samples.

Results

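Liver transcripts of Wistar rats fed orotic acid for 14 days were compared with those of Wistar controls. The comparison used 6 of the 14 arrays, selected by the source label: 3 labelled Wistar liver after 14 days of orotic acid and 3 labelled Wistar liver control. Rats ate standard chow ad libitum or the same chow with 1% orotic acid, and RNA came from the left lateral lobe of the liver. The other 8 arrays held Wistar livers at day 3 and livers of a strain labelled Kyoto at days 1, 3 and 14, all fed orotic acid. Sex and age were not given in the sources used here. Control livers are day 0 in the extraction protocol, which gives n = 3 for Wistar at day 0 and at day 14 without saying that each array was a separate animal. Standard errors and p-values rest on the spread within the 6 groups of the whole series, pooled and moderated across features, not on the compared arrays alone. That spread may be technical.

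Orotic acid is an intermediate of pyrimidine nucleotide synthesis. Added to rat chow it causes a reversible fatty liver, known as a state in which the liver keeps making triglyceride and phospholipid but releases little very low density lipoprotein (VLDL). VLDL is assembled on apolipoprotein B in the endoplasmic reticulum, a compartment where secreted proteins fold with the help of chaperones. When unfolded protein builds up there, transcription factors of the unfolded protein response raise the chaperone genes.

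Values are log2 probe set signals after quantile normalization, floored at 6.85 (log2), which is a signal of 115. In all 1909 features were tested, each a gene represented by 1 probe set or a probe set without a single gene symbol. On the 6 arrays the median deposited signal over complete rows ran from 269.5 to 281.7, and 0.524% to 1.15% of tested features lay at the floor. A difference is the day 14 mean minus the control mean, values after ± are standard errors from limma, and no overlap means that every day 14 array lies on the same side of every control. Lot batch 1 is labelled for day 14 replicates 1 and 2 and control replicates 1 and 2, and no lot batch is given for day 14 replicate 3 and control replicate 3. That last pair also had 375 and 374 blank rows, and each was the other's nearest array (r = 0.970 across features, which are not independent replicates).

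Control replicate 2, the array of title number 16, stood apart from the other controls. Across 79 features that differed between fed Kyoto and fed Wistar arrays in a limma fit without any control array, each control was placed between the fed Wistar mean at 0 and the fed Kyoto mean at 1. Its median position was 0.936, against 0.087 for control replicate 1 and 0.070 for control replicate 3. It lay nearer the Kyoto mean at 68 of the 79 features, control replicate 1 at 12 and control replicate 3 at 6. Its nearest array was Kyoto day 3 replicate 2 (r = 0.960 across features). The counts, list medians and gene differences are therefore given with this array, as labelled, and without it; the choice to leave it out was made on its values.

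Leaving out that array moved the median of those 79 features more than that of the rest. Its position on those features makes such a shift follow, so the values only describe its size. The fit that chose the features also used the day 14 arrays. The 36 features higher in Kyoto had a median day 14 difference of -0.38 with control replicate 2 and -0.09 without it. The 43 features lower in Kyoto went from 0.38 to 0.06, and the remaining 1830 features from -0.026 to -0.031. Mst1, which encodes a growth factor secreted by hepatocytes, read 10.70, 10.86 and 10.95 at day 14 and 11.10, 7.33 and 11.07 in control replicates 1, 2 and 3. Its difference of 1.01 ± 0.71 with control replicate 2 was -0.24 ± 0.26 without it. Ces2e, a carboxylesterase gene, read 10.64, 10.73 and 10.09 at day 14 against 10.09, 6.85 and 10.76, and control replicate 2 was at the floor. It was at least 1.25 ± 0.69 (log2) higher with that array and 0.06 ± 0.28 higher without it. Serpina3m, a serine protease inhibitor of the acute phase, went from 0.81 ± 0.48 to 0.03 ± 0.26. On these genes the control group was split by 1 array, and controls 1 and 3 lay close to the day 14 arrays.

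**Figure D1:**
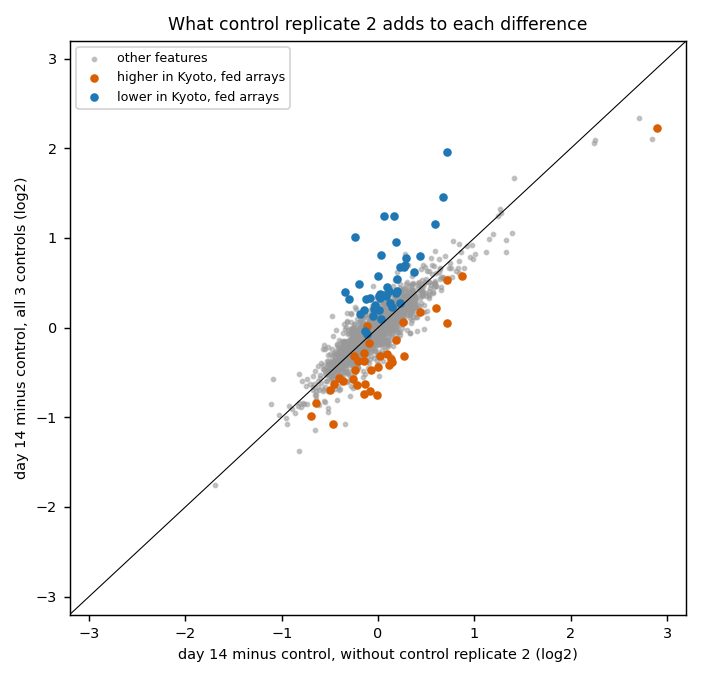
Each point is 1 of 1909 features, with its day 14 minus control difference (log2) without control replicate 2 on the x axis and with all 3 controls on the y axis; the line marks equal values. Features higher in fed Kyoto than in fed Wistar livers (36) lie mostly below the line and those lower in Kyoto (43) mostly above it.

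No feature passed the adjusted threshold of 0.05 in either fit. With all 3 controls limma called 0 of 1909 features (0%), with a smallest adjusted p of 0.410, and 99 (5.19%) had an unadjusted p under 0.05. Without control replicate 2 it again called 0 of 1909 (0%), with a smallest adjusted p of 0.849 and 51 (2.67%) at an unadjusted p under 0.05. Leaving out other single arrays gave 7 calls without day 14 replicate 3, 1 call without day 14 replicate 2 and 0 otherwise. The median standard error of a difference was 0.259 with and 0.289 without that array. With all controls, 69 features (3.61%) were higher at day 14 with no overlap and 121 (6.34%) were lower with no overlap. Without control replicate 2 the counts were 103 (5.4%) and 185 (9.69%), over 3 against 2 arrays. Of all features tested, 879 (46%) had a higher mean at day 14 with control replicate 2 and 864 (45.3%) without it, and the median difference was -0.024 and -0.030.

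Day 14 and control arrays differed from each other about as much as arrays of the same group did. The root mean square difference over 1909 features ran from 0.431 to 0.675 (log2) for the 9 pairs across groups, from 0.442 to 0.568 for the 3 control pairs and from 0.557 to 0.636 for the 3 day 14 pairs. Without control replicate 2 the 6 pairs across groups ran from 0.431 to 0.549, and the remaining control pair stood at 0.442. The smallest of all these was between day 14 replicate 3 and control replicate 3.

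Differences over 2-fold were few. With all controls, 17 features were more than 2-fold higher at day 14 and 7 more than 2-fold lower; of these, 7 and 3 had no overlap. Without control replicate 2 there were 16 and 4, of which 9 and 2 had no overlap. Those with no overlap and 1 gene symbol numbered 5 higher (Rps24, Fasn, Hyou1, Pdia4 and Rpl5) and 2 lower (Ptgr1 and Akr1c13) with all controls. Without control replicate 2 they numbered 7 higher (Rps24, Fasn, Hyou1, Pdia4, Rpl5, Gpam and Hsp90b1) and 1 lower (Gtf2a2).

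The genes of lipid synthesis gave the largest named difference apart from a ribosomal protein, but their list did not lie one way. Fasn, the fatty acid synthase that builds palmitate, read 11.03, 9.99 and 10.02 at day 14 and 9.14, 8.64 and 7.07 in controls. All day 14 arrays lay above all controls, and control replicate 3 was far below the other controls. Fasn was 4.16-fold higher (2.06 ± 0.50 log2, limma adjusted p = 0.547) and 2.24 ± 0.57 higher without control replicate 2 (adjusted p = 0.940). Its other probe set, M76767_s_at, differed by 0.96 with and 0.53 without control replicate 2, with overlapping groups. Without control replicate 3 the Fasn difference was 1.45.

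Gpam, the mitochondrial acyltransferase that begins triglyceride synthesis, read 9.39, 8.13 and 9.45 at day 14 against 7.89, 8.24 and 7.72. Day 14 replicate 2 lay below control replicate 2 and above the other controls. The difference was 1.04 ± 0.42 with and 1.19 ± 0.47 without control replicate 2 (adjusted p = 0.893 and 1.00). Srebf1, the transcription factor that drives lipogenic genes, read 10.69, 9.84 and 10.03 against 9.57, 9.35 and 9.76, with no overlap. It was 0.63 ± 0.34 higher with all controls and 0.52 ± 0.39 without control replicate 2.

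Elovl5, an elongase of polyunsaturated fatty acids, lay the other way. It read 11.58, 11.73 and 11.67 at day 14 against 12.27, 12.22 and 12.37, with tight groups that did not overlap. The difference was -0.63 ± 0.19 with and -0.66 ± 0.22 without control replicate 2 (adjusted p = 0.634 and 1.00). Scd, the stearoyl-CoA desaturase, read 11.89, 12.54 and 11.30 against 12.33, 10.74 and 11.96, so the groups overlapped. Its difference was 0.23 ± 0.47 with control replicate 2 and -0.23 ± 0.46 without it. Me1, the malic enzyme that supplies NADPH, differed by -0.40 ± 0.43 and -0.43 ± 0.49. Over the 12 tested members of the fatty acid and triglyceride synthesis list, 9 had a higher mean with all controls and 7 without control replicate 2, and the median was 0.25 and 0.07. With no overlap, 2 members were higher and 1 lower with control replicate 2, and 3 and 1 without it; the shares over all features were 3.61% higher and 6.34% lower with it, and 5.4% and 9.69% without it.

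Cholesterol synthesis enzymes were mostly above the controls by small amounts. Of 14 tested members, 11 had a higher mean with all controls and 10 without control replicate 2, with medians of 0.29 and 0.17 beside -0.024 and -0.030 for all features. Lss, lanosterol synthase, read 10.01, 9.22 and 9.23 at day 14 against 9.07, 8.37 and 9.15, with no overlap. Its difference was 0.62 ± 0.29 with and 0.37 ± 0.30 without control replicate 2. With Acat2, Idi1, Msmo1 and Cyp51 it makes 5 of the 14 members that are among the features that differed between the strains. Mvd, the mevalonate decarboxylase, also had no overlap, at 0.40 ± 0.22 and 0.31 ± 0.25. Acat2, a cytosolic thiolase at the start of the pathway, was 0.69 ± 0.35 higher with control replicate 2 and 0.28 ± 0.31 without it. Sqle, squalene epoxidase, lay the other way, at -0.51 ± 0.37 and -0.82 ± 0.38, with overlapping groups. Nsdhl, a later sterol dehydrogenase, differed by -0.27 ± 0.22 and -0.40 ± 0.24.

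The apolipoprotein genes of VLDL and high density lipoprotein (HDL) were mostly a little below the controls. Of 14 tested members of the VLDL and HDL assembly list, 4 had a higher mean and 10 a lower mean in either fit, with a median of -0.16 in both. With no overlap, 1 member was higher and 4 were lower in either fit; the shares of all features that were lower with no overlap were 6.34% with and 9.69% without control replicate 2. Apob, the scaffold protein of VLDL, read 12.25, 12.33 and 12.31 at day 14 against 12.70, 12.79 and 12.86. The groups did not overlap, and the difference was -0.48 ± 0.36 with and -0.48 ± 0.42 without control replicate 2. Its other probe sets did not agree in sign, since U53873cds_at differed by 0.55 and 0.87, so the Apob value depends on the probe set.

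Apoa1, the main protein of HDL, read 12.21, 13.17 and 13.64 against 13.46, 14.10 and 13.85, with day 14 replicate 3 above control replicate 1. It differed by -0.80 ± 0.28 with and -0.65 ± 0.31 without control replicate 2. Apoa2 differed by -0.26 ± 0.14 and -0.30 ± 0.16 with no overlap. Apoa4 differed by -0.70 ± 0.37 and -0.57 ± 0.42 with overlap. Apoe, a ligand for remnant uptake, lay the other way with no overlap, at 0.17 ± 0.11 and 0.18 ± 0.12. Mttp, which loads lipid onto apolipoprotein B, and Umps, which uses orotic acid, had no tested probe set with a single symbol.

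Genes of lipid storage and oxidation were near or slightly below control. Plin2, the protein that coats lipid droplets in hepatocytes, read 11.30, 11.60 and 11.996 at day 14 against 12.10, 12.53 and 12.01. All day 14 arrays were below all controls, though day 14 replicate 3 and control replicate 3 were nearly level. The difference was -0.58 ± 0.23 with and -0.42 ± 0.25 without control replicate 2. Of the 11 tested lipid droplet, lipase and fatty acid uptake genes, 2 had a higher mean in either fit, with medians of -0.19 and -0.25. Fabp1, the liver fatty acid binding protein, differed by -0.14 ± 0.24 and -0.08 ± 0.28. Slc27a2, a fatty acid transporter and acyl-CoA synthetase, differed by -0.14 ± 0.16 and -0.25 ± 0.17.

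Cpt1a, which admits fatty acids to mitochondria, read 8.81, 8.77 and 9.16 at day 14 against 8.82, 9.93 and 9.59, with overlap at control replicate 1. It differed by -0.54 ± 0.28 with and -0.29 ± 0.29 without control replicate 2. Acaa2, the mitochondrial thiolase, differed by -0.46 ± 0.20 and -0.36 ± 0.23 with no overlap, and Cpt2 by -0.27 ± 0.21 and -0.32 ± 0.24. Of 18 tested genes of mitochondrial fatty acid oxidation, 6 had a higher mean with and 7 without control replicate 2, with medians of -0.10 and -0.07. Of 19 peroxisomal oxidation genes, 9 and 10 had a higher mean, with medians of -0.14 and 0.06. Dao, the D-amino acid oxidase of peroxisomes, read 8.18, 8.88 and 9.21 against 9.27, 10.33 and 9.65, with no overlap. It differed by -0.99 ± 0.33 with and -0.70 ± 0.33 without control replicate 2, and is among the features that differed between the strains.

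**Figure D2:**
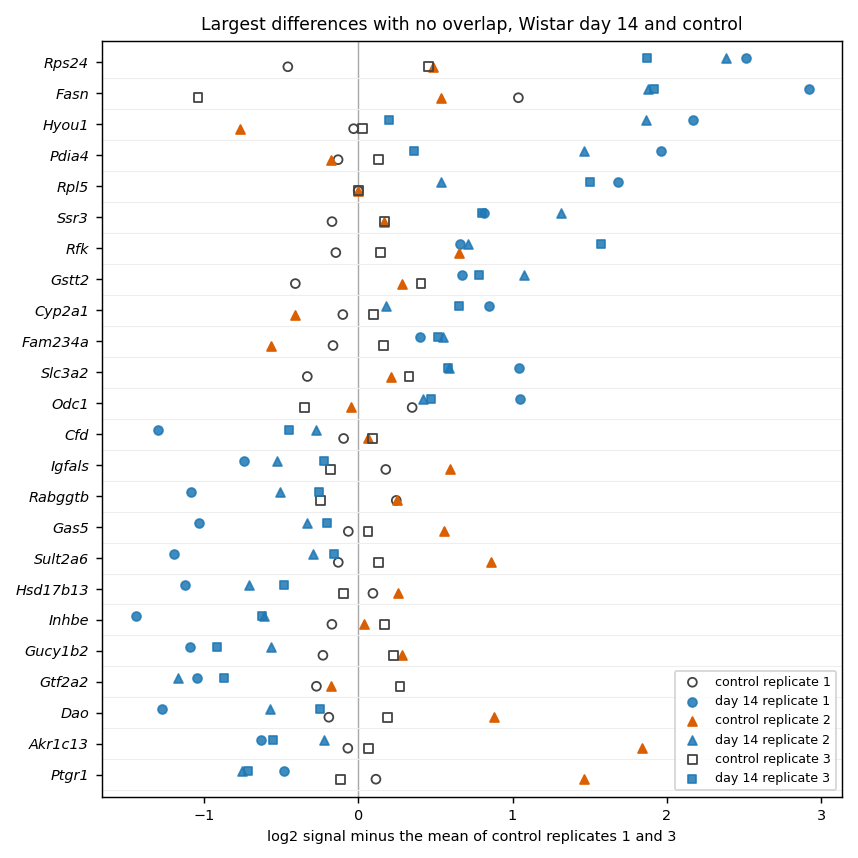
Each row is 1 gene among the 12 largest higher and 12 largest lower differences with no overlap over 3 against 3 arrays, and each point is 1 array, as log2 signal minus the mean of control replicates 1 and 3. Control replicate 2 (orange) is far from the other controls at Ptgr1 and Akr1c13, and day 14 replicate 3 is near the controls at Hyou1 and Pdia4.

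The chaperones of the endoplasmic reticulum were the list furthest from the controls among the lists with at least 5 tested members. All 13 tested members had a higher mean at day 14 with all controls and again without control replicate 2, with medians of 0.48 and 0.46 beside -0.024 and -0.030 for all features. With no overlap, 3 were higher with control replicate 2 and 5 without it, and none was lower; the shares over all features higher with no overlap were 3.61% and 5.4%. None passed the adjusted threshold in either fit. At the head of the list, Hyou1, a chaperone of the lumen related to Hsp70, read 11.72, 11.42 and 9.75 at day 14 against 9.52, 8.79 and 9.58. It was 3.17-fold higher (1.66 ± 0.49 log2, limma adjusted p = 0.634) with all controls and 1.41 ± 0.54 higher without control replicate 2. Its other probe set, U41853_at, was at the floor on 1 array and gave at least 1.42 and at least 1.11, also with no overlap over 3 against 3 arrays.

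Pdia4, a protein disulfide isomerase that forms disulfide bonds in new proteins, read 11.996, 11.50 and 10.40 against 9.91, 9.86 and 10.17. Its difference was 1.32 ± 0.37 with and 1.26 ± 0.42 without control replicate 2 (adjusted p = 0.589 and 1.00), and the groups did not overlap. Hsp90b1, the Hsp90 of the lumen, read 13.06, 11.18 and 11.72 against 11.10, 11.31 and 10.57. Day 14 replicate 2 lay below control replicate 2 and above the others. Hsp90b1 differed by 0.99 ± 0.42 and 1.15 ± 0.47, and its other probe sets, S69316_s_at and AA685903_at, gave 0.79 and 0.88 with all controls and 0.78 and 1.06 without control replicate 2. Hspa5, the lumenal Hsp70 that binds unfolded chains, read 12.75, 12.58 and 10.90 against 11.12, 11.63 and 11.13. Day 14 replicate 3 lay below all controls, and the other day 14 arrays lay above them. The difference was 0.78 ± 0.39 with and 0.95 ± 0.44 without control replicate 2.

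In the rest of the list day 14 replicate 3 was the lowest day 14 array, level with replicate 2 at the floor for Trib3. Dnajb9, a cochaperone, read 8.30, 8.55 and 7.03 against 7.36, 6.86 and 6.88 and differed by 0.93 and 0.84. Slc3a2, a membrane glycoprotein that partners amino acid transporters, read 10.61, 10.16 and 10.15 against 9.24, 9.78 and 9.90, with no overlap, and differed by 0.67 ± 0.26 and 0.74 ± 0.30. The isomerases P4hb, Pdia3 and Pdia6 differed by 0.32, 0.26 and 0.24 with control replicate 2 and by 0.20, 0.38 and 0.42 without it. Calr and Canx, the lectin chaperones of glycoproteins, differed by 0.30 and 0.14 with and by 0.30 and 0.15 without it. Ppib, a prolyl isomerase, differed by 0.36 and 0.46. Trib3, a pseudokinase of the stress response, was at the floor on all arrays but day 14 replicate 1, at 8.46, and control replicate 1, at 7.04. Ddit3, Atf3, Asns and Ppp1r15a, also on the list, were too dim to be tested.

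Day 14 replicate 1 lay above every control at 13 of the 13 members and day 14 replicate 2 at 11. Day 14 replicate 3 did so at 4 and lay below every control at 2. No such count was made over all features, so these counts have no background share beside them. Centred on each gene's mean over the 6 arrays, the list median was 0.64, 0.31 and -0.25 on day 14 replicates 1, 2 and 3 and -0.39, -0.18 and -0.20 on control replicates 1, 2 and 3. Within lot batch 1 without control replicate 2, all 13 members were higher, with a median of 0.89. Between the arrays with no lot batch, 6 of 13 were higher, with a median of 0.00. That median is the value of Trib3, which was at the floor on both arrays, so it is a tie and not a measured level. Without day 14 replicate 3 the list median was 0.74, and without day 14 replicate 1 it was 0.25. Without day 14 replicate 3, limma called Hyou1, Pdia4 and Hspa5 (adjusted p = 0.041 each), at 2.27, 1.77 and 1.37 higher. With control replicate 2 left out as well, it called Hspa5 alone of these (adjusted p = 0.042). Lot batch and the array pair cannot be told apart from the livers on those arrays.

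**Figure D3:**
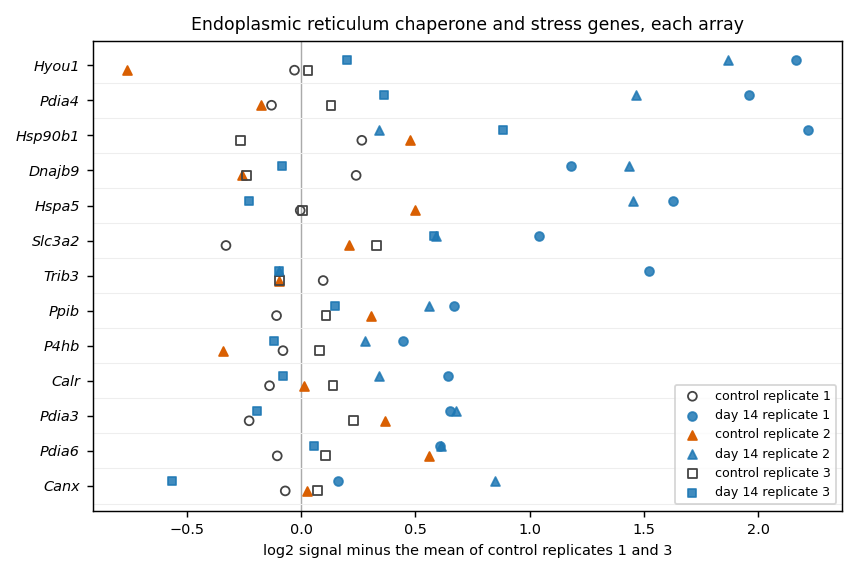
Each row is 1 of the 13 tested endoplasmic reticulum chaperone and stress genes, and each point is 1 array, as log2 signal minus the mean of control replicates 1 and 3. Day 14 replicate 1 is right of all controls in all 13 rows, and day 14 replicate 3 is among the controls in most.

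The promoters of Hspa5 and Hsp90b1 are shown because both genes carry the endoplasmic reticulum stress element, by which unfolded protein response factors are known to act on chaperone genes. Each sequence runs from 250 bases before to 50 bases after the start of the gene, in RefSeq's GRCr8 build. The element has 2 fixed ends with any 9 letters between them. Capitals mark those ends, or their reverse complement where it lies on the other strand. Hspa5 is at chr3:38452766-38453065 on the plus strand and Hsp90b1 at chr7:23012244-23012543 on the minus strand, both written in the direction of the gene.
Hspa5: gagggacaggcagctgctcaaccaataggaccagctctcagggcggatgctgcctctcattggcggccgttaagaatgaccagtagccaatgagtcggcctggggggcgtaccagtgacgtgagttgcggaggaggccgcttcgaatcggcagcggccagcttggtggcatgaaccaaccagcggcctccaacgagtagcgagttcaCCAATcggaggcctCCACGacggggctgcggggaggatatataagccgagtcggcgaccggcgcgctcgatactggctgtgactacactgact
Hsp90b1: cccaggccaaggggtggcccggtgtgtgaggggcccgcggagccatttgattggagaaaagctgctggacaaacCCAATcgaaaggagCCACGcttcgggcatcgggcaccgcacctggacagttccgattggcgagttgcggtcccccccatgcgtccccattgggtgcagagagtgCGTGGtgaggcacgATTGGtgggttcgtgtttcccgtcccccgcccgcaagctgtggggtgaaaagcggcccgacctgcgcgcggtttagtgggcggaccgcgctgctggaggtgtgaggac

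In Hspa5 the match ran from 43 to 25 bases before the start. In Hsp90b1 matches ran from 176 to 158 bases before the start and, on the other strand, from 72 to 54 bases before it. Searched on both strands, the element was in 22 of 33469 promoters of that length (0.0657%) and in 6 of 1351 promoters of tested genes (0.444%). It was in 4 of the 11 chaperone list members with a promoter in the table: Hspa5, Hsp90b1, Calr and Canx. The day 14 differences of these genes ran from 0.14 (Canx) to 0.99 (Hsp90b1) with all controls and from 0.15 (Canx) to 1.15 (Hsp90b1) without control replicate 2. Hyou1 and Pdia4 held no match, which says only that these letters are not in this window. A match is a description of letters and was not tested as a site.

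Ribosomal protein genes held some of the largest single differences while most of the list lay slightly below control. Rps24 read 9.81, 9.68 and 9.17 at day 14 against 6.85, 7.79 and 7.76, with control replicate 1 at the floor and no overlap. It was at least 4.26-fold higher (2.09 ± 0.43 log2, limma adjusted p = 0.410) and at least 2.25 ± 0.49 higher without control replicate 2. Rpl5 read 8.53, 7.38 and 8.35, and all 3 controls were at the floor, so it was at least 2.36-fold higher in either fit. Its difference was at least 1.24 ± 0.28 with and at least 1.24 ± 0.32 without control replicate 2. Without day 14 replicate 2, limma called Rpl5 (at least 1.59 higher, adjusted p = 0.0217). Rpl3 read 12.47, 12.89 and 12.35 against 12.38, 12.31 and 11.70, with overlap, and differed by 0.44 and 0.53. Of 39 tested members 10 had a higher mean with all controls and 12 without control replicate 2, with medians of -0.09 and -0.08. Rpl13a, for example, differed by -0.39 ± 0.20 and -0.33 ± 0.23 with no overlap. Gas5, a noncoding host of small nucleolar RNAs, read 6.90, 7.60 and 7.73 against 7.87, 8.49 and 7.99 and differed by -0.71 ± 0.33 and -0.52 ± 0.37.

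Other genes were higher with no overlap. Ssr3, a subunit of the translocon-associated protein complex, read 10.39, 10.89 and 10.37 against 9.41, 9.74 and 9.75 and differed by 0.92 ± 0.34 with and 0.98 ± 0.39 without control replicate 2. Rfk, riboflavin kinase, read 8.34, 8.39 and 9.25 against 7.53, 8.33 and 7.82, with day 14 replicate 1 barely above control replicate 2. It differed by 0.76 ± 0.35 and 0.98 ± 0.38. Cyp2a1, a steroid hydroxylase, read 12.84, 12.17 and 12.65 against 11.89, 11.58 and 12.09 and differed by 0.70 ± 0.21 and 0.56 ± 0.23. Among these Cyp2a1 had the tightest error. Gstt2, a glutathione transferase, differed by 0.75 ± 0.30 and 0.84 ± 0.34, and Odc1, the first enzyme of polyamine synthesis, by 0.66 ± 0.32 and 0.65 ± 0.37. The other Odc1 probe set, J04791_s_at, was at the floor on 1 array and gave 0.0092 and 0.016 with overlap, so the Odc1 value depends on the probe set. Fam234a was at least 0.68 ± 0.30 higher with control replicate 2, which was at the floor, and 0.49 ± 0.33 without it.

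Several of the genes lowest at day 14 owed much of their difference to control replicate 2. Ptgr1, prostaglandin reductase, read 8.47, 8.20 and 8.24 at day 14 against 9.07, 10.42 and 8.84. It was 2.2-fold lower (-1.14 ± 0.48) with that array and differed by -0.65 ± 0.46 without it, with no overlap in either. Akr1c13, an aldo-keto reductase that differed between the strains, read 8.41, 8.82 and 8.48 against 8.97, 10.87 and 9.10. It went from -1.08 ± 0.41 to -0.47 ± 0.29. Igfals, which differed between the strains too, went from -0.70 ± 0.24 to -0.50 ± 0.25, and Sult2a6, a sulfotransferase of bile acids and steroids, from -0.83 ± 0.37 to -0.55 ± 0.40. Other Igfals probe sets did not agree in sign without control replicate 2. S46785_at went from -0.85 to -0.65, and rc_AA924289_s_at from -0.21 to 0.15.

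Other lower genes kept their size without that array. Gucy1b2, a subunit of soluble guanylate cyclase, read 7.88, 8.40 and 8.05 against 8.74, 9.25 and 9.20 and differed by -0.95 ± 0.22 and -0.86 ± 0.25 (limma adjusted p = 0.410 and 1.00). Gtf2a2, a subunit of the basal transcription factor TFIIA, read 7.18, 7.06 and 7.36 against 7.96, 8.05 and 8.50. It differed by -0.97 ± 0.27 and -1.03 ± 0.31. In both genes the groups did not overlap, so the sign in each lot was fixed by construction. Gucy1b2 differed by -0.60 in lot batch 1 without control replicate 2 and by -1.14 between the arrays with no lot batch. For Gtf2a2 these differences were -0.84 and -1.14. Hsd17b13, a lipid droplet enzyme of hepatocytes, read 9.21, 9.63 and 9.86 against 10.43, 10.59 and 10.24 and differed by -0.86 ± 0.25 and -0.77 ± 0.29. Inhbe, a subunit of activin, differed by -0.90 ± 0.38 and -0.89 ± 0.44, Rabggtb, a prenyltransferase of Rab proteins, by -0.70 ± 0.25 and -0.61 ± 0.29, and Cfd, complement factor D, by -0.70 ± 0.29 and -0.68 ± 0.34.

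Some genes had no overlap only once control replicate 2 was left out, or ranked higher then. Gnb1, a G protein subunit, differed by 0.67 ± 0.35 with and 0.83 ± 0.39 without it, and Ero1b, the oxidase that recharges disulfide isomerases, by 0.42 ± 0.35 and 0.66 ± 0.37. Prkag1, a regulatory subunit of the AMP-activated kinase, differed by 0.56 ± 0.22 and 0.65 ± 0.25, and Ap2b1, of the clathrin adaptor, by 0.54 ± 0.24 and 0.64 ± 0.27. Other Ap2b1 probe sets did not agree in sign. M77246_at gave -0.07 and -0.04, and M34176_s_at, at the floor on 4 arrays, gave 0.15 in either fit. On the lower side were Agtr1a, the angiotensin II receptor (-0.66 ± 0.22 and -0.68 ± 0.26), and Txnrd2, the mitochondrial thioredoxin reductase (-0.54 ± 0.25 and -0.67 ± 0.28). Hsph1, a cytosolic chaperone, differed by -0.67 ± 0.28 and -0.62 ± 0.32, opposite in sign to the chaperones of the endoplasmic reticulum. Nr1h4, the bile acid receptor FXR, read 8.03, 8.81 and 8.84 against 9.28, 9.06 and 9.06 and differed by -0.57 ± 0.25 and -0.60 ± 0.28. Gnl3, a nucleolar GTPase, differed by -0.43 ± 0.30 and -0.62 ± 0.33.

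Growth hormone acts on the liver through its receptor and STAT5 to raise Igf1 and to set male and female patterns of cytochromes P450. Ghr, the receptor, read 11.20, 10.63 and 12.77 at day 14 against 12.60, 12.87 and 12.37. Day 14 replicates 1 and 2 lay below all controls and replicate 3 lay among them. The difference was -1.08 ± 0.38 with and -0.95 ± 0.44 without control replicate 2 (limma adjusted p = 0.893 and 1.00). Without day 14 replicate 3 it was -1.70 (adjusted p = 0.00893), and without that array and control replicate 2 it was -1.57 (adjusted p = 0.042). Its probe set Z83757mRNA_at gave -0.52 with and -0.48 without control replicate 2, with no overlap over 3 against 3 arrays.

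Cyp2c7, a P450 that growth hormone sustains, read 11.31, 12.48 and 13.57 against 13.41, 13.56 and 13.42, the same order of day 14 arrays as in many chaperone genes but downward. It was 2.01-fold lower (-1.01 ± 0.38) with and differed by -0.96 ± 0.43 without control replicate 2. Without day 14 replicate 3 it was -1.57 (adjusted p = 0.041), and with control replicate 2 left out as well -1.52, which limma did not call (adjusted p = 0.0824). Igf1, the growth factor itself, read 11.40, 11.84 and 12.45 against 12.49, 13.02 and 12.25 and differed by -0.69 ± 0.30 and -0.47 ± 0.33. Of 10 tested genes of the receptor and IGF axis, 2 had a higher mean with and 3 without control replicate 2, with medians of -0.33 and -0.25. In lot batch 1 without control replicate 2 that median was -0.22, and between the arrays with no lot batch it was 0.16. Stat5b differed by 0.29 ± 0.30 and 0.30 ± 0.35. Of 19 growth hormone patterned and sex-dimorphic genes, 8 and 6 had a higher mean, with medians of -0.10 and -0.11. Cyp2c13, a male-specific P450, differed by -0.28 ± 0.16 and -0.27 ± 0.19 with no overlap. Cyp2c12, its female counterpart, was at the floor on 2 controls and 1 day 14 array, so no fold is given.

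Several features with larger differences fall outside the rule for named genes and were singled out after their values were seen. The probe set rc_AI102562_at carries several gene symbols and read 13.16, 12.88 and 10.36 at day 14 against 8.25, 10.53 and 10.60. Its difference was 2.34 ± 0.71 with and 2.71 ± 0.79 without control replicate 2, and day 14 replicate 3 lay among the controls. Without day 14 replicate 3, limma called it (3.23 higher, adjusted p = 0.0413), and with control replicate 2 left out as well it called this probe set and rc_AI176456_at (adjusted p = 0.0422 each). The probe sets M11794cds#2_f_at and rc_AI176456_at, with no single symbol, had the same order and differed by 2.22 and at least 2.10 with control replicate 2 and by 2.89 and at least 2.85 without it. In all 3 the control arrays themselves spanned over 2-fold. M11794cds#2_f_at is among the features that differed between the strains, being higher in Kyoto. AKR1C3l1, an aldo-keto reductase, was at the floor on day 14 replicates 1 and 2 and read 8.32 on replicate 3, against 9.74, 9.22 and 8.31 in controls. It was lower by at least 1.75 ± 0.48 on the log2 scale with control replicate 2 and by at least 1.69 ± 0.56 without it.

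Over all features, the differences seen within lot batch 1 and between the arrays with no lot batch, which share no samples, had no common direction. They had the same sign at 954 of 1909 features without control replicate 2 and at 908 with it. The median absolute difference was 0.226 in lot batch 1 without control replicate 2 (2 against 1 arrays) and 0.233 between the arrays with no lot batch (1 against 1). Fasn was higher by 1.36 and 2.95, Rps24 by at least 2.90 and 1.42, Hsp90b1 by 1.02 and 1.15 and Gpam by 0.88 and 1.74. Hyou1 stood at 2.05 and 0.17, Pdia4 at 1.84 and 0.23, Hspa5 at 1.54 and -0.23, and Ghr at -1.68 and 0.40. The former genes were higher in each lot, and the latter differed mainly in lot batch 1. A feature with no overlap, with or without control replicate 2, has the same sign in both of these differences by construction. That covers Fasn, Rps24, Hsp90b1, Gpam, Hyou1 and Pdia4.

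**Figure D4:**
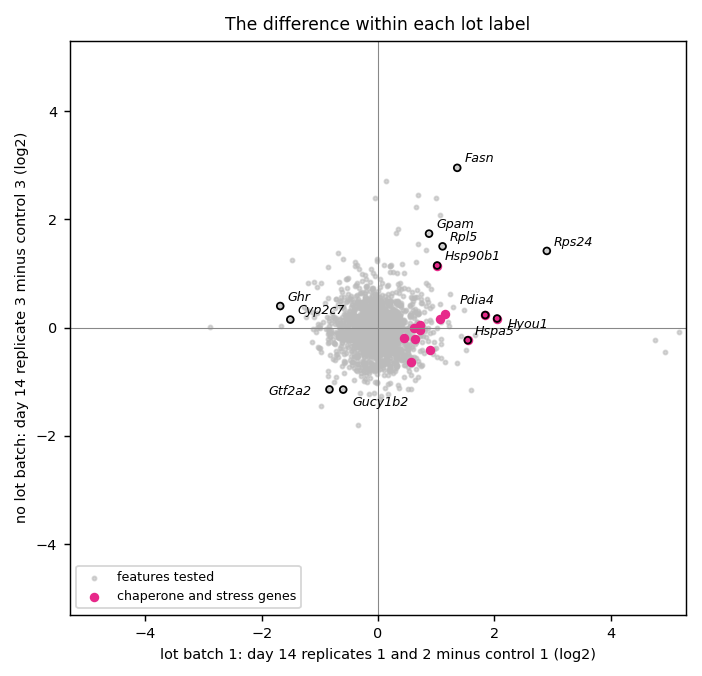
Each point is 1 of 1909 features, with its day 14 minus control difference (log2) in lot batch 1 without control replicate 2 on the x axis and between the arrays with no lot batch on the y axis; chaperone and stress genes are pink. Fasn, Rps24, Gpam, Rpl5 and Hsp90b1 lie in the upper right, and Hyou1, Pdia4 and Hspa5 lie close to the horizontal axis.

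The remaining metabolic lists had medians close to those of all features. Of 13 phosphatidylcholine and methyl group genes 8 had a higher mean with and 6 without control replicate 2, with medians of 0.08 and 0.00. Gnmt, which disposes of methyl groups, differed by 0.65 ± 0.36 and 0.45 ± 0.39, Pemt, which methylates phosphatidylethanolamine, by -0.16 ± 0.20 and -0.10 ± 0.23, and Chka, choline kinase, by -0.39 ± 0.28 and -0.40 ± 0.32. Pyrimidine and purine genes (13) had medians of -0.06 and -0.07; Upb1, the last enzyme of uracil breakdown, differed by 0.25 ± 0.23 and 0.24 ± 0.27. Bile acid genes (14) had medians of -0.12 and -0.04. Cyp7a1, which makes the first hydroxylation of cholesterol towards bile acids, read 10.94, 10.94 and 9.81 against 10.31, 10.26 and 10.10 and differed by 0.34 ± 0.40 and 0.36 ± 0.46.

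Glycolysis and gluconeogenesis genes (19) had medians of -0.02 and -0.06. Pc, pyruvate carboxylase, differed by -0.60 ± 0.24 and -0.53 ± 0.28 and Pck1, the gluconeogenic carboxykinase, by -0.42 ± 0.31 and -0.23 ± 0.34. Urea cycle and amino acid genes (35) had medians of 0.08 and 0.04, and Gpt, alanine aminotransferase, differed by 0.57 ± 0.28 and 0.35 ± 0.29. Oxidative phosphorylation and citric acid cycle genes (57) had medians of 0.03 and 0.02, conjugation and antioxidant genes (32) of 0.03 and 0.02, and microsomal cytochromes P450 (30) of 0.01 and -0.04. Secreted plasma proteins (35) had medians of -0.02 and -0.03 and solute carriers (36) of -0.03 and -0.09. Gclc, the catalytic subunit for glutathione synthesis, was at the floor on 1 day 14 array and differed by at least -0.68 ± 0.28 and -0.57 ± 0.31, and Slc6a13, a GABA and taurine transporter, by -0.85 ± 0.35 and -0.74 ± 0.40. None of the members named here passed the adjusted threshold.

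**Figure D5:**
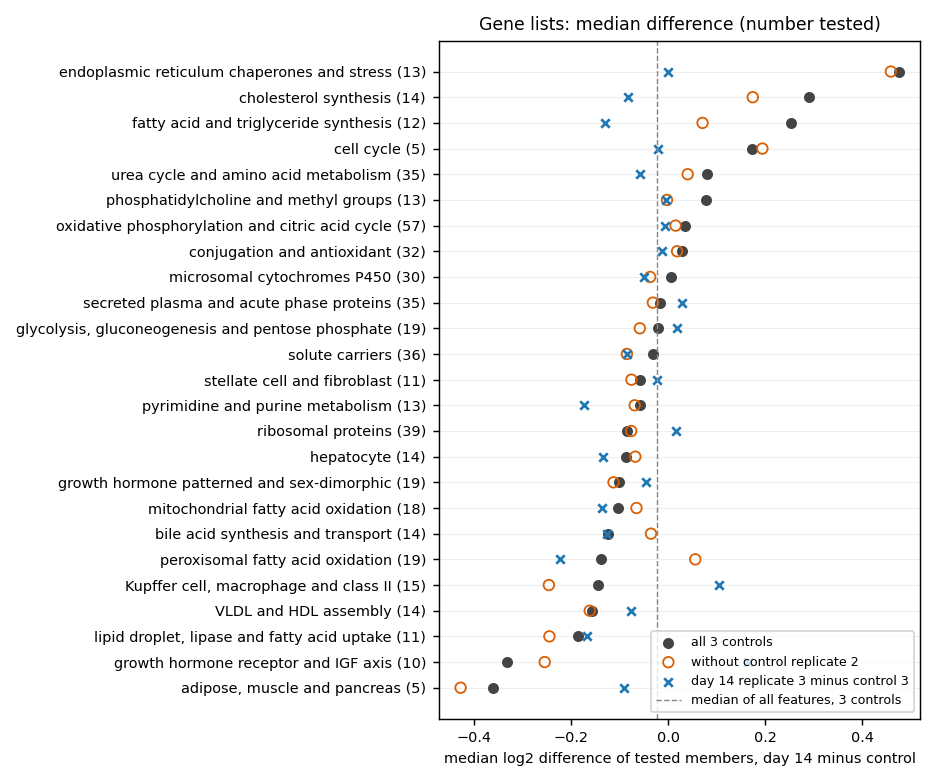
Each row is 1 gene list with at least 5 tested members, with the median day 14 minus control difference (log2) over all 3 controls, without control replicate 2, and for day 14 replicate 3 minus control replicate 3 alone; the dashed line is the median of all features with 3 controls. The chaperone list is furthest right with and without control replicate 2 (0.48 and 0.46) and at 0.00 for the pair with no lot batch. That 0.00 is the value of Trib3, which was at the floor on both arrays of the pair.

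Hepatocyte markers had like summed signals in the groups, though most had a slightly lower mean at day 14. All 14 hepatocyte markers on the array were tested, and their summed signal ran from 161306 to 165182 at day 14 and from 164161 to 174923 in controls. Of these markers, 4 had a higher mean and 10 a lower mean in either fit. Their medians were -0.09 with and -0.07 without control replicate 2. Over all features, 46% and 45.3% had a higher mean. In whole liver, fewer cells of a type and less RNA per cell cannot be told apart. Kupffer cell, macrophage and class II genes had a lower mean in 12 of 15 tested members with all controls and in 9 without control replicate 2, with medians of -0.14 and -0.25. Their summed signal ran from 9601 to 13119 at day 14 and from 11867 to 13648 in controls, or to 12918 without control replicate 2. Within lot batch 1 without control replicate 2, 3 of the 15 were higher, with a median of -0.24. Between the arrays with no lot batch, 9 of the 15 were higher, with a median of 0.10. Ctss, a cathepsin of antigen presenting cells, read 9.99, 10.15 and 9.86 against 10.54, 10.94 and 10.39 and differed by -0.62 ± 0.20 and -0.46 ± 0.21 with no overlap. Clec4f, a lectin of Kupffer cells, differed by -0.60 ± 0.25 and -0.37 ± 0.25, and Lgals3 by -0.56 ± 0.23 and -0.40 ± 0.25. All 3 are among the features that differed between the strains. Their part in the other differences was not tested.

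Stellate cell and fibroblast genes (11 tested) had medians of -0.06 and -0.08 and summed signals of 7470 to 10463 at day 14 and 7202 to 10824 in controls, or to 10012 without control replicate 2. Of endothelial markers 3 were tested and Pecam1 was at the floor on all 6 arrays. Of 4 blood markers the summed signal ran from 9566 to 13456 at day 14 and from 7975 to 17937 in controls, the highest being control replicate 2; the next was 12458. The 2 cholangiocyte markers tested summed to 3746 to 4465 at day 14 and to 3261 to 4650 in controls. Without control replicate 2 the control sums reached 3681 at most, so the sums did not overlap. Each marker alone overlapped the controls with and without that array. Over all features, 5.4% were higher with no overlap without it. Adipose, muscle and pancreas markers (5 tested) had medians of -0.36 with and -0.43 without control replicate 2. In either fit 2 of the 5 had a higher mean and 3 a lower mean. With no overlap, 2 were lower with control replicate 2 and 3 without it. The shares of all features lower with no overlap were 6.34% with and 9.69% without that array. The summed signal of these markers ran from 1457 to 2720 at day 14 and from 2128 to 2387 in controls. Cfd, named above, Amy2a3, a pancreatic amylase (-0.52 ± 0.42 and -0.53 ± 0.49), and, without control replicate 2, Ins2, an insulin gene (-0.36 ± 0.31 and -0.43 ± 0.35), were the lower members. Lymphocyte markers were too dim to be tested. Of 16 cell cycle genes on the array 5 were tested, and Ccnd1, cyclin D1, differed by 0.17 ± 0.36 with and 0.47 ± 0.37 without control replicate 2.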

How the data were processed

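Liver RNA was measured on 1-colour Affymetrix arrays. The values deposited by the authors are linear intensity signals, 1 per probe set. The submitters' processing notes name MAS5; version and scaling target: not given in the sources used here. Of 4502 rows, 24 control probe sets and 375 rows with a blank were removed, leaving 4110. Log2 signals were quantile normalized over 14 arrays, floored at the 25th percentile of all values, and reduced to the probe set with the highest mean per gene (3181 features). The upper 60% by mean (1909) were tested: 1502 with 1 symbol in the platform annotation and 407 without. The quantile step holds each array's distribution equal, so differences are relative to the other features, and the floor understates differences of dim ones. Precision is limited by how few arrays there are.

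A linear model of 6 group means (limma 3.58.1 in R 4.3.3, lmFit and eBayes with an intensity trend, 8 residual degrees of freedom, 7 without control replicate 2) gave 1 contrast, with Benjamini-Hochberg adjusted p over 1909 features and a threshold of 0.05. The code was tested on simulated data. Arrays were grouped by source label. Members of the 29 gene lists, and the lists themselves, were chosen with earlier results of these data known, and after the values were seen the P450 list was narrowed to microsomal families and kinases were taken out of the ribosomal list. Lists are described by counts and medians, with no test. Named genes were the 12 largest differences each way with no overlap, 6 more each way without control replicate 2, up to 5 members per list by unadjusted p (some of these are not shown) and a set of lipid and chaperone genes. The other chaperone list members were added after their values were seen. Replicate numbers follow accession order. Alternatives changed the scaling, floor, filter or probe set choice, or used fits on fewer arrays, a lot batch block, array weights and leaving out each array. Promoters are from RefSeq (GRCr8).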

Additional observations from a re-analysis of the deposited data

How the results depend on the processing

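The counts depended on which arrays and features were compared. Of the 21 settings, those within lot batch 1 and within the arrays with no lot batch were described without a test. In most of the others no feature passed adjusted p 0.05 in limma. The exceptions were 7 features without day 14 replicate 3 (Ghr, Hspa5, Hyou1, Pdia4, Cyp2c7 and 2 without a single symbol) and 1 without day 14 replicate 2 (Rpl5, adjusted p = 0.0217). Array weights gave 1 (Rps24, adjusted p = 0.0392). Leaving out both control replicate 2 and day 14 replicate 3, an alternative added after seeing the data, gave 5. Over single arrays left out the count of calls ran from 0 to 7, the count at an unadjusted p under 0.05 from 51 (without control replicate 2) to 145, the count higher with no overlap from 103 to 211 and the count lower with no overlap from 185 to 256, partly because fewer arrays are compared. The count at an unadjusted p under 0.05 was 156 with no filter, 64 for the upper 40% of features, 46 for only the 6 arrays less control replicate 2 and 56 with the lot batch block and no control replicate 2; the number of features tested shapes the former pair. With no overlap, 40 features were higher for the upper 40% of features; 304 were higher and 355 lower within lot batch 1; 269 were higher and 347 lower with control replicate 2 and day 14 replicate 3 both left out; and 185 were lower for the 6 arrays less control replicate 2 and with the lot block and no control replicate 2.

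The fatty acid and triglyceride synthesis median was 0.42 within lot batch 1, -0.13 in the arrays with no lot batch, 0.063 with the lot block and no control replicate 2, 0.071 for the 6 arrays less that control, and 0.071 to 0.38 over single arrays left out. The cholesterol synthesis median was -0.083 and that of the chaperones 0 in the arrays with no lot batch. The chaperone value there is that of Trib3, at the floor on both arrays. The VLDL and HDL assembly median was -0.23 within lot batch 1, -0.077 in the arrays with no lot batch, -0.25 with the signals as deposited, -0.089 with array weights and -0.23 to -0.10 over single arrays left out. The lipid droplet median ran from -0.25 to -0.11 over single arrays left out.

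Of 122 genes and probe sets compared, 88 reversed in none of the settings in which they were compared. In the arrays with no lot batch the sign reversed for Serpina3m (-0.031), Pdia6 (-0.050), M11794cds#2_f_at (-0.077), Upb1 (-0.077), Bhmt (-0.095), Mst1 (-0.12), Gnmt (-0.15), Ugdh (-0.17), P4hb (-0.20), Calr (-0.22), Hspa5 (-0.23), rc_AI102562_at (-0.23), Cyp7a1 (-0.29), Pdia3 (-0.42), rc_AI176456_at (-0.45), Canx (-0.63), Scd (-0.65), Ces2e (-0.67), Slc6a13 (0.0073), AKR1C3l1 (0.0085), Abcb4 (0.054), Pck1 (0.083), Cyp2c7 (0.15), Ddc (0.17), Igf1 (0.20), Apoa4 (0.29) and Ghr (0.40), and within lot batch 1 for Bdh1 (0.017). Without control replicate 2, Scd was -0.23 and Mst1 -0.24, the same values as for the 6 arrays less that control; with the lot block and no control replicate 2, Scd was -0.40, Mst1 -0.22, Serpina3m -0.035 and Abcb4 0.038. With control replicate 2 and day 14 replicate 3 both left out, Mst1 was -0.30. With 1 array left out at a time, differences spanned -0.020 to 0.47 for Ccnd1, -0.019 to 0.56 for Hnf4a, -0.024 to 0.44 for Got1, -0.095 to 0.37 for Sparc, -0.30 to 0.11 for Fabp1, -0.064 to 0.74 for Trib3, -0.21 to 0.50 for Canx, -0.23 to 0.56 for Scd and -0.24 to 1.64 for Mst1. The causes were not tested. No paired analysis was possible because the labels give no replicate numbers that groups share. Signals at the floor limit what can be said of dim genes.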
